A study of Mus musculus with 18 samples.

Results

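The genes described here are 10 enzymes and regulators of de novo fatty acid synthesis, Acly, Me1, Acaca, Fasn, Elovl6, Scd1, Dgat2, Srebf1, Mlxipl and Thrsp. They were taken by symbol from a table of 23337 gene symbols, and each was present once. Read counts were measured by polyA-selected RNA sequencing of mammary gland tissue from mice on a C57BL/6Jx129 background, with lymph nodes excluded at dissection per the labels, although B cell markers differed widely between libraries, as given below. The 18 libraries formed 6 groups of 3. The groups were Cip2a-/- and WT glands of untreated mice, Cip2a-/- and WT glands taken 2 weeks after the last dose of DMBA, and tumour-free Cip2a-/- and WT glands of mice killed because a DMBA-induced tumour had arisen in some tissue, called the endpoint here. DMBA (7,12-dimethylbenz[a]anthracene) is a carcinogen, and the treated mice received 6 weekly oral doses of 1 mg dissolved in oil, the first at 12 to 14 weeks of age. The product of Cip2a restrains the phosphatase PP2A, and the labels call the mutant mice Cip2a-/- without describing the allele. The sources used here give neither sex, age at the endpoint, litter, feeding state, hour of collection nor an oil-only control. DMBA, gavage in oil, age, feeding state and hour of collection therefore cannot be told apart. At the endpoint the presence of a tumour in the mouse cannot be told apart from them either. Labels number the libraries of a group without tying them to litters or batches, and p-values therefore measure the spread between these samples.

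De novo fatty acid synthesis turns surplus carbohydrate into fat. Acly makes cytosolic acetyl-CoA from citrate, Acaca carboxylates it to malonyl-CoA, and Fasn joins these units into palmitate with NADPH that Me1 and the pentose phosphate pathway supply. Elovl6 lengthens palmitate, Scd1 places a double bond in the product, and Dgat2 esterifies fatty acids into triglyceride. The transcription factors SREBP-1 (from Srebf1) and ChREBP (from Mlxipl) induce these enzymes in response to insulin and glucose, and Thrsp is a small protein that is induced with them and promotes the pathway. In the mammary gland the pathway is known both in the white adipocytes of the fat pad and, during lactation, in the milk-producing epithelium.

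The promoters of 4 genes whose levels varied together are shown because the results turn on that shared variation. The sequences are RefSeq windows of build GRCm38.p6, from 250 bases before to 50 after an annotated start, printed along the strand of the gene, for Fasn (chr11:120824498-120824797, minus strand), Acly (chr11:100527951-100528250, minus strand), Thrsp (chr7:97417501-97417800, minus strand) and Elovl6 (chr3:129532136-129532435, plus strand). Capitals mark CCAAT and GGGCGG on either strand, so that ATTGG and CCGCCC are also in capitals, and matches that overlap on opposite strands were both counted.
Fasn: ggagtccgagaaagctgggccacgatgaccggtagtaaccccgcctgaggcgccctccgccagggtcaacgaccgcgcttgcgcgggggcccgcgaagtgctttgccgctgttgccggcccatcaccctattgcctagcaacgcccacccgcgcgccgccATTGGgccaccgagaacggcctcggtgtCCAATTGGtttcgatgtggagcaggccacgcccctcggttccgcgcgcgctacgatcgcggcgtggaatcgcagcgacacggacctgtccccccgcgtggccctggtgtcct
Acly: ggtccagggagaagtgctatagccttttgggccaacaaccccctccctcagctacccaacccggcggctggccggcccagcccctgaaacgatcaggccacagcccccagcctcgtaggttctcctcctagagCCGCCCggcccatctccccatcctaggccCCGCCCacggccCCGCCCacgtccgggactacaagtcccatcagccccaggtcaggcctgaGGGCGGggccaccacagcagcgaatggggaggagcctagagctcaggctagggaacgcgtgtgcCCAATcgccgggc
Thrsp: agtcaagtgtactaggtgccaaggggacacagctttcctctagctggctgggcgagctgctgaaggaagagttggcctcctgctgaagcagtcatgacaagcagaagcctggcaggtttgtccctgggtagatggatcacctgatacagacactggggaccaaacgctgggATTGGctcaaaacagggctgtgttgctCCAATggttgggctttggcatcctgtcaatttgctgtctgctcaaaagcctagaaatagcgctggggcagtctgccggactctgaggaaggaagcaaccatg
Elovl6: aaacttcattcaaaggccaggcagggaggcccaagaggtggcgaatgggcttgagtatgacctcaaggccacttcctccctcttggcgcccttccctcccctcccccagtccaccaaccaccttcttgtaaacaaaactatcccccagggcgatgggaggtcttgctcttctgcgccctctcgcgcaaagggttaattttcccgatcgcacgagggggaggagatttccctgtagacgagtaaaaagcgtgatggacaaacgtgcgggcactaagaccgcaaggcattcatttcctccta
Windows were found for 8 of the 10 genes, 12 windows in all, and Scd1 and Dgat2 had none in the table used. CCAAT, the box bound by NF-Y, was in 7 of these 12 windows, belonging to 6 genes, and in 37.4% of 32851 windows of the table. GGGCGG, the GC box bound by Sp1, was in 5 of the 12, belonging to 4 genes, and in 35.7% of all windows. The E-box CACGTG and the sterol-type letters TCACNCCA were each in 1 of the 12, a window of Mlxipl, and in 7.15% and 4.36% of all windows. None of the 4 searched motifs was in the Elovl6 window or in the Acaca window, which is not shown. The only Acaca window (chr11:84195188-84195487, plus strand) lies inside the gene, which begins at 84129635, so the region before its first start was not searched. Elovl6 and Acaca varied closely with Fasn, as given below, and the part of the motifs in this was not tested. A match is a description of letters, and its absence speaks only of these 300 bases.

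Total counts per library lay between 16121743 and 24586404. Cip2a, listed under the older symbol C330027C09Rik, had 0.0598, 0.0550 and 0 CPM (counts scaled to library size by TMM) in the Cip2a-/- untreated libraries and 0 in the other 6 Cip2a-/- libraries, against 1.42 ± 0.524 CPM in WT untreated, 3.08 ± 0.245 CPM in WT 2-week and 3.23 ± 1.65 CPM in WT endpoint libraries (SD, n = 3 each). White adipocyte markers were all detected, with the 13 markers summing to between 12889 and 64615 CPM. WT endpoint library 1 stood apart in several marker sets. The thermogenic brown fat gene Ucp1 reached 5835 CPM there, against at most 318 CPM in the other libraries, and the brown fat markers summed to 8723 CPM. Luminal epithelial markers summed to 39.3 CPM in that library, against at least 657 CPM in the others. Other tissue varied between libraries as well. The 11 skeletal muscle markers summed to between 23.0 and 76552 CPM, highest in Cip2a-/- 2-week library 1, WT endpoint library 1 (50702 CPM) and WT untreated library 1 (38216 CPM). Although lymph nodes were to be excluded, B cell markers summed to between 1.23 and 1916 CPM and lymph node stroma markers to between 1.23 and 851 CPM, both highest in WT endpoint library 1. In the 2 libraries later left out with it, B cell and lymph node stroma markers summed to 709 and 324 CPM (Cip2a-/- untreated library 3) and to 242 and 227 CPM (Cip2a-/- 2-week library 2). Milk genes reached 6435 CPM in Cip2a-/- endpoint library 1, 1 of the 3 endpoint libraries high in Fasn. The part of these tissues in the results was not tested. Fewer cells of a type and less RNA per cell cannot be told apart in these whole-tissue libraries, whichever gene is considered.

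The 10 genes were chosen with their high abundance in these data known, so their ranks describe them and test nothing. By mean CPM over the 18 libraries Scd1 was the most abundant gene of all, Fasn ranked 3, Dgat2 41, Acly 45, Thrsp 60, Acaca 82, Me1 84, Srebf1 134, Elovl6 277 and Mlxipl 614. Per length, in TPM computed from exon length for 22892 genes, Scd1 averaged 9744 TPM and ranked 4, Fasn averaged 3016 TPM and ranked 19, and Thrsp, a short transcript, averaged 2260.0 TPM and ranked 31. Dgat2 averaged 1844 TPM, Acly 842 TPM and Me1 607 TPM. Lowest per length were Srebf1 with 373 TPM (rank 406), Acaca with 239 TPM (rank 655), Elovl6 with 165 TPM (rank 1012) and Mlxipl with 164 TPM (rank 1024). The transcription factors thus stood below most of the enzymes they are known to induce. Together the 10 genes took between 0.335% of a library's counts, in WT endpoint library 2, and 7.80%, in Cip2a-/- untreated library 1.

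Variation between mice of the same group was the main feature of these genes. Fasn had 26527, 22505 and 4500.3 CPM in the Cip2a-/- untreated libraries, against 13599.9, 2828 and 10685 CPM in WT untreated libraries. At 2 weeks the Fasn levels were 10787, 7424 and 11186 CPM in Cip2a-/- glands, against 12554, 20232 and 11069 CPM in WT glands. At the endpoint they were 22725, 444 and 1110.3 CPM in Cip2a-/- glands, against 25577, 526 and 24477 CPM in WT glands. Both endpoint groups thus held glands near the top of the whole range beside glands near its bottom, and every pair of groups overlapped. The level of Fasn differed 59.8-fold between the highest and the lowest of the 18 libraries.

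**Figure D1:**
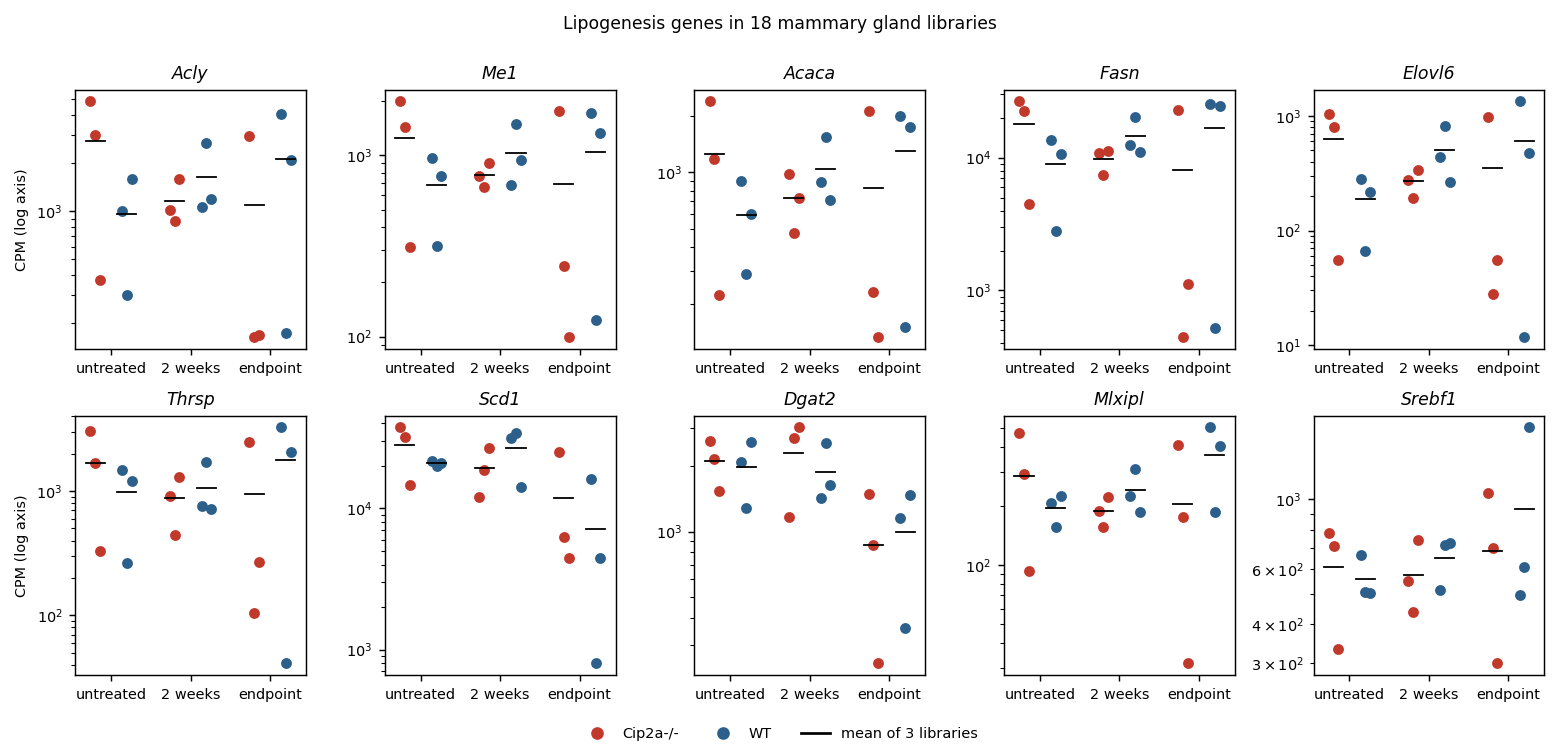
Level of each of the 10 genes in every library, in CPM on a log axis, by condition, with Cip2a-/- glands left of WT glands. Points are single libraries and bars are means of 3; the untreated and endpoint groups spread widely, with Fasn at 22725, 444 and 1110.3 CPM in the Cip2a-/- endpoint glands.

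Elovl6 varied over the widest range of the 10. Its levels were 1040.4, 803 and 55.4 CPM in Cip2a-/- untreated and 284, 65.8 and 218 CPM in WT untreated glands. They were 275, 191 and 337 CPM in Cip2a-/- and 436, 821 and 263 CPM in WT glands at 2 weeks, and 976, 28.0 and 55.4 CPM in Cip2a-/- and 1339, 11.7 and 476 CPM in WT glands at the endpoint. The highest Elovl6 level was 115 times the lowest, and the 5 libraries lowest in Elovl6 were also the 5 lowest in Fasn. Thrsp came next, with 79.1-fold between its highest and lowest library, 3257 CPM in WT endpoint library 1 and 41.2 CPM in WT endpoint library 2. The other ranges were 46.8-fold for Scd1, 29.8-fold for Acly, 19.96-fold for Me1, 17.97-fold for Acaca, 16.0-fold for Mlxipl, 12.4-fold for Dgat2 and 5.68-fold for Srebf1.

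The supply enzymes followed the same glands. Acly had 4861, 3011 and 374 CPM in Cip2a-/- untreated and 1009, 299 and 1594 CPM in WT untreated glands. At the endpoint it had 2935, 163 and 168 CPM in Cip2a-/- and 4071, 173 and 2103 CPM in WT glands. Me1, which yields NADPH, ranged between 99.1 CPM in Cip2a-/- endpoint library 3 and 1977 CPM in Cip2a-/- untreated library 1. The same 2 libraries held the extremes of Acaca, at 133 and 2382 CPM. Cip2a-/- endpoint libraries 2 and 3 and WT endpoint library 2 were the 3 lowest of the 18 for Fasn, and for 4 of the 10 genes, Fasn included.

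Scd1 and Srebf1 did not track Fasn in every gland. The ratio of Scd1 to Fasn CPM was 14.1 in Cip2a-/- endpoint library 2 and 0.183 in WT endpoint library 3. In the first of these glands Scd1 was at 6237 CPM with Fasn at 444 CPM, and in the other Scd1 was at 4485 CPM with Fasn at 24477 CPM. Srebf1 had 1046, 699 and 299 CPM in Cip2a-/- endpoint glands, against 494, 606 and 1699.8 CPM in WT endpoint glands. Its level in Cip2a-/- endpoint library 2, where Fasn was lowest of all, lay above its median of 635 CPM over the 18 libraries. Mlxipl had 409, 175 and 31.5 CPM in Cip2a-/- endpoint glands, against 506, 186 and 408 CPM in WT endpoint glands.

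Spread within a group, as the ratio of its highest to its lowest library, was set beside that of all 15482 genes tested. The median ratio of the 10 genes was 6.14 in Cip2a-/- and 3.09 in WT untreated glands, 1.80 in Cip2a-/- and 2.16 in WT glands at 2 weeks, and 16.8 in Cip2a-/- and 17.0 in WT glands at the endpoint. The median over all genes was 1.48 and 1.34, 1.49 and 1.28, and 1.73 and 1.92 in the same order. All 10 genes had a wider ratio at the endpoint than at 2 weeks in Cip2a-/- glands, as did 62.3% of all genes, and all 10 did so in WT glands, as did 85.3% of all genes. Set against untreated glands of the same genotype, the endpoint ratio was again wider for all 10 genes in both genotypes, beside 63.9% of all genes in Cip2a-/- and 84.6% in WT glands. The 10 genes varied together and are not 10 independent observations of spread, and the difference in spread between conditions was not tested.

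**Figure D2:**
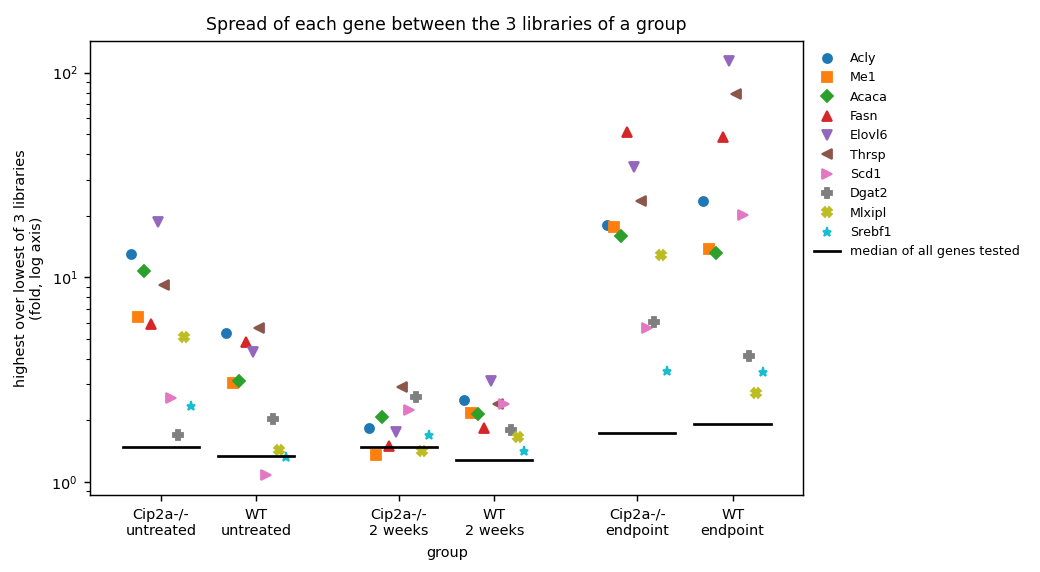
Highest over lowest CPM among the 3 libraries of each group, on a log axis, with 1 symbol per gene and a black bar for the median of all 15482 genes tested. The 10 genes lie closest to that bar at 2 weeks, with medians of 1.80 and 2.16, and farthest above it at the endpoint, with medians of 16.8 and 17.0, Cip2a-/- before WT.

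Deviations of each library from its group mean, on the log2 CPM scale, showed which genes varied together. All 45 pairs among the 10 genes were positively correlated over the 18 libraries, with a median Pearson r of 0.84. After Benjamini-Hochberg adjustment over 55 relations, 34 of the 45 pairs had an adjusted p under 0.05 in a two-sided permutation test that shuffled libraries within groups 100000 times. Fasn and Elovl6 had r = 0.97 and Spearman's rho = 0.98 (permutation p = 1e-05 for each, the smallest that 100000 shuffles can give, adjusted p = 0.000183 for each). Groups of 3 libraries allow fewer distinct arrangements than 100000, so the exact floor lies above 1e-05 and p-values at it are read only as small. Without the 2 libraries farthest from the median of Fasn, r was 0.95, and over the 12 untreated and 2-week libraries it was 0.96. Fasn and Thrsp gave r = 0.98 and rho = 0.98, with the same p-values (permutation p = 1e-05, adjusted p = 0.000183), r = 0.97 without the 2 farthest libraries and r = 0.97 without the endpoint libraries.

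Acly, Me1, Acaca, Fasn, Elovl6 and Thrsp were the tightest group, with r between 0.92 and 0.98 in their 15 pairs; these 6 were grouped after their values were seen. Scd1 followed Fasn less closely, with r = 0.84 (permutation p = 0.0108, adjusted p = 0.0205) and rho = 0.80 (permutation p = 0.00224, adjusted p = 0.00493). That r was 0.77 without the 2 libraries farthest from the median of Scd1 and 0.59 over the 12 libraries without the endpoint. For Fasn and Dgat2 the Pearson r of 0.71 missed the threshold (permutation p = 0.0381, adjusted p = 0.0582), while rho = 0.70 did not (permutation p = 0.00776, adjusted p = 0.0129), and r was 0.50 without the 2 farthest libraries. Srebf1 stood farthest from the rest. Its r with Fasn was 0.52 (permutation p = 0.197, adjusted p = 0.252) and rho was 0.57 (permutation p = 0.103, adjusted p = 0.126), with r = 0.40 without the 2 farthest libraries. Over the 12 untreated and 2-week libraries alone the r of Srebf1 with Fasn was 0.76, and that of Mlxipl with Fasn was 0.87, against 0.68 for Mlxipl over all 18. The lowest r of the 45 pairs, 0.32, was that of Scd1 and Srebf1.

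**Figure D3:**
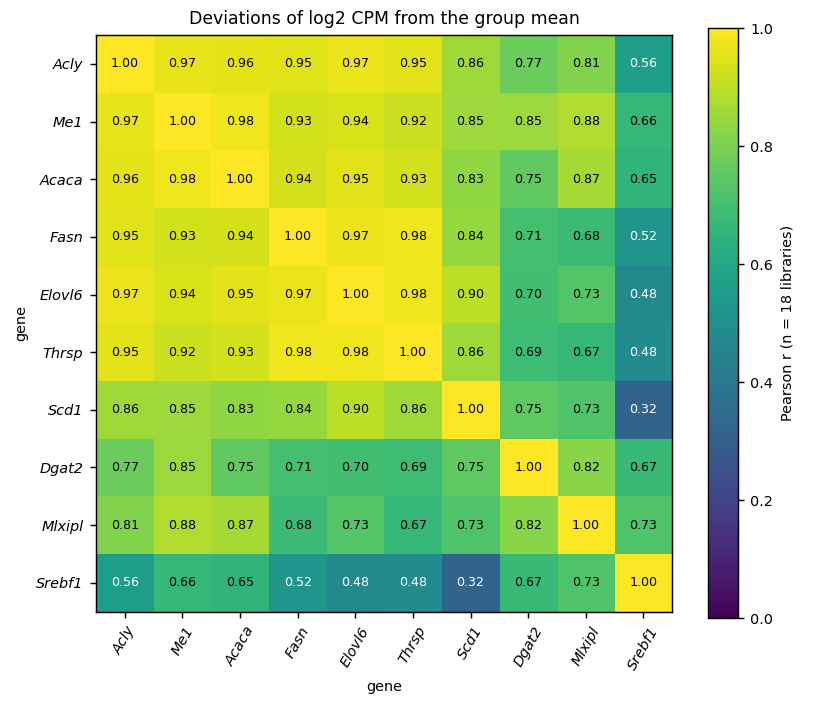
Pearson r between the deviations of log2 CPM from the group mean, for each pair of the 10 genes over 18 libraries, with genes on both axes. The block of Acly, Me1, Acaca, Fasn, Elovl6 and Thrsp lies between 0.92 and 0.98, and the lowest value, 0.32, belongs to Scd1 and Srebf1.

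The amount of white adipocyte RNA in a library was compared with the same deviations through the score of the 13 white adipocyte markers. Over the 18 libraries Fasn had r = 0.02 (permutation p = 0.965, adjusted p = 0.983) and rho = 0.17 (permutation p = 0.590, adjusted p = 0.590) with that score. Its r was -0.05 without the 2 farthest libraries and 0.47 over the 12 untreated and 2-week libraries. Srebf1 alone among the 10 passed the threshold over the 18 libraries. It had r = 0.78 (permutation p = 0.0272, adjusted p = 0.0440) and rho = 0.75 (permutation p = 0.00888, adjusted p = 0.0136), and r = 0.61 without the 2 farthest libraries. Dgat2 had r = 0.54 with the score over the 18 libraries and r = 0.79 over the 12 without the endpoint. Scd1 had r = -0.004 over the 18, r = 0.47 without its 2 farthest libraries (WT endpoint libraries 1 and 2) and r = 0.75 over the 12. All 10 genes had a positive r with the score over the 12, lowest for Fasn and highest for Dgat2, and these values were not tested. Cip2a-/- endpoint library 2 had a white adipocyte sum of 43956 CPM, the highest of the Cip2a-/- libraries, together with the lowest Fasn level of all 18. WT endpoint library 3 had the highest sum of all 18, 64615 CPM, together with 24477 CPM of Fasn. Per Plin1, which coats the adipocyte lipid droplet, Fasn stood at 0.185 in Cip2a-/- endpoint library 2 and at 13.3 in WT endpoint library 3. It stood at 31.1 in WT endpoint library 1, the gland with high brown fat markers. That gland had the lowest white adipocyte sum of all 18, 12889 CPM, together with 25577 CPM of Fasn. It was not among the 2 libraries left out for Fasn, and its part in the r of Fasn was not tested.

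**Figure D4:**
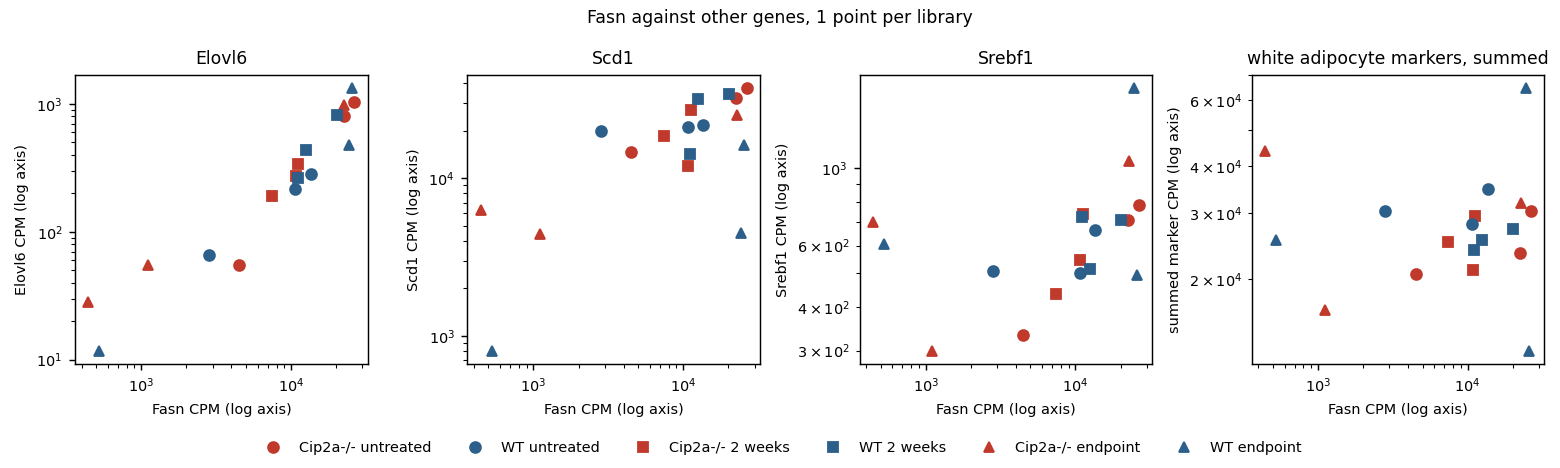
Elovl6, Scd1, Srebf1 and the summed white adipocyte markers of each library, each against Fasn, in CPM on log axes, with Cip2a-/- in red, WT in blue and a symbol per condition. Elovl6 rises with Fasn over the whole range (r = 0.97 of deviations from the group mean), while Cip2a-/- endpoint library 2 combines 444 CPM of Fasn with 43956 CPM of adipocyte markers. WT endpoint library 3 combines 24477 CPM of Fasn with 64615 CPM of these markers.

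Loss of Cip2a was the first question of the design, and no lipogenesis gene was called between genotypes. In edgeR's quasi-likelihood test with Benjamini-Hochberg adjustment over the 15482 genes, 0 of the 10 were called in untreated glands, beside 0% of all genes, and 0 of the 10 had an unadjusted p under 0.05. At 2 weeks 0 of the 10 were called, beside 0.00646% of all genes, and at the endpoint 0 of the 10, beside 0.00646%. Averaged over the 3 conditions 0 of the 10 were called, beside 0.00646% of all genes. That share was 1 gene each time, Cip2a itself (adjusted p = 0.0281 at 2 weeks, 0.0276 at the endpoint and 0.000325 averaged). In untreated glands even Cip2a, at -5.00 on the log2 scale, was not called (adjusted p = 0.568), so a count of 0 there says little. DESeq2 and limma voom also called 0 of the 10 in each of these 4 comparisons. In edgeR 0 of the 10 had an unadjusted p under 0.05 in any of them. The shares of all genes were 2.27% in untreated glands, 2.44% at 2 weeks, 10.7% at the endpoint and 0.917% averaged, so 0 of 10 is near these shares.

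The size of these genotype differences shifted between conditions. In untreated glands all 10 genes had a positive log2 fold change of Cip2a-/- over WT, with a median of 0.82, against 0.04 over all genes. At 2 weeks 9 of the 10 had a negative one, with a median of -0.44, and at the endpoint 9 of the 10, with a median of -0.72, against 0.04 and -0.02 over all genes. Single libraries moved these medians: it was 0.16 in untreated glands without Cip2a-/- untreated library 1, -0.11 at 2 weeks without WT 2-week library 2, and at the endpoint -2.75 without Cip2a-/- endpoint library 1 and -0.14 without WT endpoint library 1. Brown fat markers had the same signs, with 9 of 9 positive in untreated glands (median 0.94), 7 of 9 negative at 2 weeks (-0.32) and 9 of 9 negative at the endpoint (-2.46). The medians of the 11 skeletal muscle markers were -0.88, 2.95 and -6.49 in the same 3 comparisons, and those of the 8 B cell markers 0.84, 4.54 and -5.27. The part of these markers in the shift was not tested. Elovl6 had the log2 fold changes 1.74 ± 1.39 untreated, -0.92 ± 1.36 at 2 weeks and -0.79 ± 1.36 at the endpoint (SE), and each was smaller than 1.5 standard errors. The 10 genes varied together between mice, so their signs are not independent of each other. The interaction of genotype and condition, which tests that shift itself, called 0 of the 10 and 0% of all genes at 2 weeks as well as at the endpoint, with 0 of the 10 at an unadjusted p under 0.05 in either. Without Cip2a-/- endpoint library 1, left out after seeing the data, the endpoint interaction held 7 of the 10 at an unadjusted p under 0.05 and still called 0. The share of all genes in that fit is not given here. With all 18 libraries that share was 10%, so nothing particular to the 10 genes is read from this count. For Fasn the interaction over all 18 libraries was -1.56 ± 1.81 at 2 weeks and -2.04 ± 1.82 at the endpoint (log2, SE), with adjusted p = 0.999 and 0.658.

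Averaged over conditions, Fasn differed by -0.22 on the log2 scale between Cip2a-/- and WT, with a 95% interval of -1.79 to 1.35, and Elovl6 by 0.01, with an interval of -1.65 to 1.68. Differences of several fold in either direction thus lie within these intervals. The narrowest were those of Srebf1, at -0.17 with an interval of -0.78 to 0.44, and Dgat2, at 0.06 with an interval of -0.68 to 0.80. One library carried much of the averages of the other genes: without Cip2a-/- endpoint library 1 Fasn was at -1.37 and Elovl6 at -1.04, all 10 genes were negative with a median of -0.75, against -0.03 with it, and 0 of the 10 were called.

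DMBA was the other question. At 2 weeks after the last dose 0 of the 10 genes were called in WT glands, beside 0% of all genes, 0 of the 10 in Cip2a-/- glands, beside 0.0129%, and 0 of the 10 averaged over genotypes, beside 0.0258%. Neither DESeq2 nor limma voom called any of them in these comparisons. In edgeR 0 of the 10 had an unadjusted p under 0.05, beside 4.23% of all genes in WT, 4.53% in Cip2a-/- and 6.57% averaged. Averaged over genotypes Srebf1 differed by 0.07 ± 0.35, Scd1 by -0.10 ± 0.61 and Fasn by -0.09 ± 0.90 between 2-week and untreated glands (log2, SE), and the median of the 10 was -0.06, against 0.00 over all genes.

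Between endpoint and untreated glands, averaged over genotypes, Scd1 and Dgat2, which act late in the pathway, had the largest differences of the 10. This did not hold within a genotype, where Elovl6 differed most in WT, at 1.69 ± 1.38, and Acly in Cip2a-/- glands, at -1.34 ± 1.19 (log2, SE). Dgat2 had 1496, 865 and 246 CPM in Cip2a-/- endpoint glands, against 2621, 2176 and 1542 CPM in Cip2a-/- untreated glands. In WT it had 1158, 358 and 1474 CPM at the endpoint, against 2088, 1284 and 2599 CPM untreated. The Cip2a-/- endpoint levels of Dgat2 all lay below the Cip2a-/- untreated ones, as did those of 9.42% of all genes, while the WT groups overlapped. Averaged over genotypes Dgat2 differed by -1.14 ± 0.43 on the log2 scale between endpoint and untreated glands (SE), which did not pass adjustment in edgeR's quasi-likelihood test (adjusted p = 0.207).

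Scd1 had 25027, 6237 and 4421 CPM in Cip2a-/- endpoint glands, against 37456, 32053 and 14600.2 CPM in Cip2a-/- untreated glands. In WT it had 16185, 801 and 4485 CPM at the endpoint, against 21569, 19880.3 and 21016 CPM untreated. Here the WT endpoint levels all lay below the WT untreated ones, as did those of 7.80% of all genes, and the Cip2a-/- groups overlapped. Averaged over genotypes the difference of Scd1 was -1.39 ± 0.62 (log2, SE), with adjusted p = 0.275 in edgeR's quasi-likelihood test. Reads shared with the paralogs Scd2, Scd3 and Scd4 may be split between them in a way the sources do not describe. Scd2, the most abundant of the 3, averaged 227 ± 229.8 CPM in Cip2a-/- endpoint and 733 ± 319 CPM in Cip2a-/- untreated glands, and 254 ± 118 CPM in WT endpoint and 379 ± 249 CPM in WT untreated glands (SD, n = 3 each).

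No lipogenesis gene was called between endpoint and untreated glands: 0 of the 10 in WT, beside 0.0323% of all genes, 0 of the 10 in Cip2a-/-, beside 0%, and 0 of the 10 averaged over genotypes, beside 0.252%. At an unadjusted p under 0.05 the averaged comparison held 2 of the 10, Scd1 and Dgat2, beside 16.9% of all genes, and DESeq2 and limma voom called 0 of the 10. The other 8 genes had averaged differences between -0.12 for Fasn and 0.45 for Srebf1, each with an interval that spans 0. These small averages rested on single libraries. Without Cip2a-/- endpoint library 1, Fasn was at -1.82, Acly at -1.47, Thrsp at -1.17 and Elovl6 at -1.13, the median of the 10 was -1.15, against -0.04 with it, and 0 of the 10 were called. Srebf1 was at 0.06 without WT endpoint library 3. White adipocyte markers summed to 16597 to 43956 CPM in Cip2a-/- and 12889 to 64615 CPM in WT endpoint glands, against 20710.2 to 30464 CPM in Cip2a-/- and 28002 to 34665 CPM in WT untreated glands. With the white adipocyte score as a term in the fit, Dgat2 differed by -0.87 ± 0.43 and Scd1 by -1.51 ± 0.75 (log2, SE). The averages hide opposite signs: in WT 8 of the 10 were positive, with a median of 0.88, and in Cip2a-/- 9 of the 10 were negative, with a median of -0.84. Without Cip2a-/- endpoint library 1 the Cip2a-/- median was -2.82, and without WT endpoint library 1 the WT median was 0.30. The interaction given above did not pass for any of them.

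Endpoint against 2-week glands was the comparison with most genes called, 13.4% of all genes, and 0 of the 10 lipogenesis genes were among them. Dgat2 had the smallest adjusted p of the 10, at -1.16 ± 0.43 (log2, SE, adjusted p = 0.0859 in edgeR's quasi-likelihood test), and was the only one with an unadjusted p under 0.05, beside 30.1% of all genes. DESeq2 called Dgat2 alone of the 10, at -1.15 with an adjusted p of 0.0330, among 3250 genes that it called in this comparison. With limma voom none of the 10 was called. The endpoint levels of Dgat2 overlapped the 2-week levels in both genotypes, since endpoint glands reached 1496 CPM (Cip2a-/-) and 1474 CPM (WT), above the lowest 2-week glands of 1169.8 CPM (Cip2a-/-) and 1433 CPM (WT). For Scd1 the difference was -1.29 ± 0.62 with adjusted p = 0.175, and without WT endpoint library 1, the gland with high brown fat markers, it was -2.01 with adjusted p = 0.0325. Without Cip2a-/- endpoint library 1, Dgat2 was at -1.48 with adjusted p = 0.0431. Fits that left out 1 library called between 978 and 2610 of all genes in this comparison, so nothing particular to Scd1 or Dgat2 is read from these calls. The column headers hold a number for each library that is higher in all 2-week libraries than in the others, and the sources used here do not explain it.

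**Figure D5:**
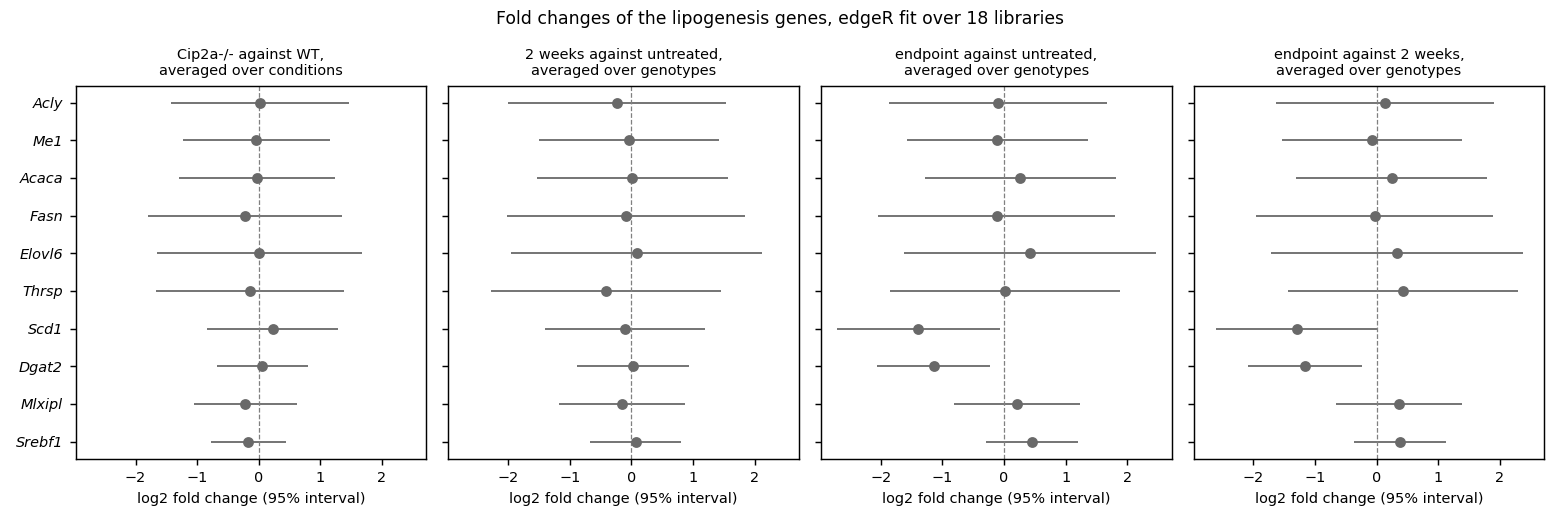
Log2 fold changes of the 10 genes with 95% intervals in the 4 comparisons averaged over genotypes or conditions, from edgeR's fit over 18 libraries; positive values are higher in the first-named group. Averaged over genotypes, Dgat2 and Scd1 lie lowest at the endpoint, at -1.14 and -1.39 against untreated glands, and the intervals of the other 8 genes span 0 in each panel.

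Other genes of the pathway were followed in lists chosen with earlier results of these data known. Of 24 related lipogenesis genes, 15 tested genes of NADPH and glucose supply, 17 of triglyceride assembly, 26 of the control of Srebf1 and Mlxipl and 20 of lipolysis and fatty acid oxidation, 0 were called in any comparison except endpoint against 2 weeks. In that comparison, where 13.4% of all genes were called, the lists held 1 of the 24, 1 of the 15, 1 of the 17, 4 of the 26 and 0 of the 20, shares near or below that of all genes, and nothing particular to the lists is read from them. The 1 related gene was Elovl3, which was higher at the endpoint. Elovl3, an elongase typical of brown fat and skin, had 4.26, 13.1 and 8.63 CPM in Cip2a-/- endpoint and 379, 2.24 and 22.8 CPM in WT endpoint glands, against 0.55 to 6.17 CPM in the 2-week glands of both genotypes. Its difference of 3.27 ± 1.03 (log2, SE, adjusted p = 0.0488 in edgeR's quasi-likelihood test) was called in 3 of the 18 fits that left out 1 library and in 3 of 9 other alternatives. It was 1.56 without WT endpoint library 1, with adjusted p = 0.186, and 2.27 in limma voom, with adjusted p = 0.376.

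In the same comparison Slc2a1, the basal glucose transporter, rose by 0.79 ± 0.21 (log2, SE, adjusted p = 0.0280), the only 1 of the 15 supply genes called. Mogat2, which acylates monoacylglycerol, fell by 2.09 ± 0.58 (adjusted p = 0.0307), the only 1 of the 17 assembly genes. Leaving out each of the 18 libraries in turn kept the call of Slc2a1 in 13 cases and that of Mogat2 in 11. Of the 26 control genes 3 rose and 1 fell. Usf1 and Usf2, E-box factors that bind the Fasn promoter, rose by 0.47 ± 0.12 (adjusted p = 0.0231) and 0.50 ± 0.10 (adjusted p = 0.0103), and Nr1h2, the sterol receptor LXR beta that induces Srebf1, rose by 0.56 ± 0.12 (adjusted p = 0.0119). Prkaa1, a catalytic subunit of AMPK, which inhibits acetyl-CoA carboxylase, fell by 0.56 ± 0.15 (adjusted p = 0.0284). Their calls were kept in 13 of the 18 cases for Usf1, in all 18 for Usf2 and Nr1h2, and in 12 for Prkaa1. With only the groups compared in the fit, Nr1h2 (adjusted p = 0.0530), Prkaa1 (0.0685), Slc2a1 (0.0706) and Mogat2 (0.0800) were no longer called. With the white adipocyte score as a term the calls of Usf1 (0.0526), Prkaa1 (0.0609), Slc2a1 (0.0710) and Mogat2 (0.0911) were lost. Mogat2 was also lost without the 3 libraries together (0.0748), and Usf2 alone of these 6 was called in every alternative. The list medians were 0.08 for related genes, 0.16 for supply, 0.01 for assembly, -0.06 for control and 0.20 for lipolysis, against 0.05 over all genes and 0.19 for the 10 lipogenesis genes.

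The genes whose log2 levels most resembled the mean of the 10 over the 18 libraries were sought among 11982 genes with a mean of at least 5 CPM. The nearest was Acss2, which makes acetyl-CoA from acetate, with r = 0.98, followed by Tlcd1 and Slc2a5, the fructose transporter, with r = 0.97 each, Pygl, a glycogen phosphorylase, also with r = 0.97, and Tkt, a transketolase of the pentose phosphate pathway, with r = 0.96. These values are a description over libraries that share scaling and composition. Acss2 had 503, 47.6 and 16.7 CPM in Cip2a-/- endpoint and 677, 24.0 and 462 CPM in WT endpoint glands, high where Fasn was high. Slc2a5 went further still, with 54.5, 0.269 and 0.443 CPM in Cip2a-/- endpoint and 69.6, 0.426 and 45.9 CPM in WT endpoint glands. Nearest to Scd1 alone were Orm1, with r = 0.90, and Aldh1a7, with r = 0.87, and nearest to Srebf1 alone were Dak, with r = 0.89, and Mgst1, with r = 0.88.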

How the data were processed

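Libraries were made from polyA RNA with a TruSeq Stranded mRNA protocol, per the labels' protocols. Per the submitters' processing notes the authors used bcl2fastq 2.17, STAR 2.5.2b, Subread 1.5.1 and mm10. How strand and multiply mapped reads were handled, and with which annotation, is not stated, so reads of Srebf1 and Rai1, of Me1 and A330041J22Rik (each on opposite strands) and of the Scd paralogs cannot be assigned with certainty. The authors deposited unnormalized read counts by gene symbol, with 0 columns unmatched to a library. A symbol was matched to the RefSeq gene table for 23130 of 23337 symbols.

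The genes and lists were chosen with earlier results of these data known. Counts were fitted in edgeR 4.0.16 (R 4.3.3): filterByExpr (minimum count 10, total 15) left 15482 genes, all 10 lipogenesis genes among them, libraries were scaled by TMM, the model had a term for each of the 6 groups and used all 18 libraries, and contrasts were tested by quasi-likelihood F-tests with Benjamini-Hochberg adjustment over all genes, called at adjusted p under 0.05. The script was tested on simulated data. Log2 CPM used a prior count of 2. TPM was computed with exon lengths of GENCODE vM21 on GRCm38, the assembly also called mm10. Correlations used permutation within groups (two-sided). Genes were named as the 10 given, list genes that were called (at most 6 a list), and the nearest genes by Pearson r. Alternatives were DESeq2 1.42.0, limma 3.58.1 (voom), other scalings, no filter, a replicate block, an adipocyte score, fewer groups and libraries left out.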

Additional observations from a re-analysis of the deposited data

How the results depend on the processing

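Called genes among the 10 stayed at 0 in the comparisons tested under the alternatives run, except endpoint against 2 weeks, where DESeq2 called 1 and leaving out 1 library gave between 0 and 1. The 1080 recomputed log2 fold changes of the 10 genes passed the threshold in 3 cases, those of Scd1 and Dgat2 given above. In 170 of the 1080 the sign differed, all for differences of at most 0.43 (log2) that lay within 1 standard error of 0 and were given no direction. Medians of the 10 without each library, given above, were chosen after seeing the data. Counts over all genes moved more. DESeq2 called 6 genes in Cip2a-/- against WT untreated, where edgeR called 0, 3 at 2 weeks, 83 at the endpoint and 3 averaged. It called 14 at 2 weeks against untreated in WT, 36 in Cip2a-/- and 88 averaged, 310 at the endpoint against untreated in WT, 270 in Cip2a-/- and 828 averaged, 3250 at the endpoint against 2 weeks, and 7 and 34 in the 2-week and endpoint interactions. With limma voom the 2-week counts were 1 in Cip2a-/- and 2 averaged, and the averaged endpoint count was 23. With only the groups compared in the fit the counts were 0 for both genotype comparisons after DMBA, 0 at 2 weeks in Cip2a-/-, 0 at the endpoint in WT, 4 for the averaged endpoint against untreated and 605 for endpoint against 2 weeks. With the adipocyte score as a term they were 0 for both genotype comparisons after DMBA, 0 at 2 weeks in Cip2a-/-, 2 for the averaged 2 weeks and 8 at the endpoint in WT. Without 3 libraries together (WT endpoint 1, Cip2a-/- untreated 3, Cip2a-/- 2-week 2) they were 0 for both genotype comparisons after DMBA, 1 at 2 weeks in WT, 0 in Cip2a-/-, 0 at the endpoint in WT, 1 in Cip2a-/- and 7 averaged. Upper-quartile scaling gave 1 in the 2-week interaction. Leaving out 1 library gave 0 to 2 in Cip2a-/- against WT at 2 weeks, 0 to 6 at the endpoint and 1 to 2 averaged. It gave 0 to 3 at 2 weeks in Cip2a-/- and 1 to 12 averaged, 0 to 46 at the endpoint in WT, 0 to 9 in Cip2a-/- and 2 to 279 averaged, 978 to 2610 for endpoint against 2 weeks, and 0 to 1 in each interaction. Whether replicate numbers pair the samples cannot be told from these values. Of 45 same-numbered pairs of libraries 17 had deviations correlated above 0.1, and the 45 lay between -0.47 and 0.66. Differently numbered pairs were not set beside them. With the replicate block the counts were 20 at the endpoint in WT and 60 averaged, 0 of the 10 genes were called, and Dgat2 differed by -1.16 ± 0.46 for the averaged endpoint against untreated. The cause of these changes was not tested. With 3 libraries a group and the spread seen, several-fold differences of Fasn or Elovl6 would not be called.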

Other observations

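Genes of glycogen and citrate handling were among those nearest to the mean of the 10 lipogenesis genes when each library was taken as its deviation from the group mean, over 18 libraries and 11982 genes. Tkt, a transketolase, was nearest with r = 0.99, and Slc25a1, the mitochondrial citrate carrier, had r = 0.95, Pdhb, a subunit of pyruvate dehydrogenase, r = 0.95, Pygl, a glycogen phosphorylase, r = 0.97, and Gys2, a glycogen synthase known from liver, r = 0.94. Tkt had 5298, 539 and 551 CPM in Cip2a-/- endpoint and 4727, 467 and 3228 CPM in WT endpoint glands. Gys2 had 81.9, 8.87 and 3.98 CPM in Cip2a-/- endpoint and 75.5, 2.28 and 34.2 CPM in WT endpoint glands. In both genes the low libraries were Cip2a-/- endpoint libraries 2 and 3 and WT endpoint library 2, the glands lowest in Fasn. Gys2 had 63.5, 63.1 and 66.5 CPM in Cip2a-/- 2-week glands and 36.1, 68.1 and 70.1 CPM in WT 2-week glands. These genes were picked by their likeness, and the values carry no test.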
